A study of Homo sapiens with 6 samples.

Results

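Regulators of G protein signalling (RGS proteins) were followed in H69, an immortalised human cell line derived from bile duct epithelium (cholangiocytes). The line was used at passages 30 to 32. TGF-beta (recombinant, human) was given for 16 h at 10 ng/ml, the control was vehicle alone, and each condition had 3 RNA sequencing libraries of this one line. The labels do not say that the replicates were separate cultures, so the spread between them may be technical. The genes described here are RGS2, RGS3, RGS4, RGS5, RGS10, RGS12, RGS14, RGS16, RGS17 and RGS20. They were matched by symbol on the primary chromosomes, which gave 11 rows of the 64253 in the table, because RGS5 names 2 rows. This set of 10 symbols was chosen by looking at fold changes of the same TGF-beta contrast, so the changes of its members, and the calls that the fit over all genes gave them, are a description and support nothing. No p is printed for them.

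G protein-coupled receptors act by loading GTP onto the alpha subunit of a heterotrimeric G protein, which then separates from its beta and gamma subunits, and both parts signal to effectors. RGS proteins bind the GTP-loaded alpha subunit and speed up GTP hydrolysis, which ends the signal. RGS2, RGS3, RGS4, RGS5 and RGS16 belong to the R4 subfamily, RGS10, RGS12 and RGS14 to the R12 subfamily, and RGS17 and RGS20 to the RZ subfamily. RGS4, RGS5 and RGS16 proteins are short-lived, being removed through the N-degron pathway after their first methionine is cleaved to expose a cysteine.

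Promoter sequences are shown for RGS4 and RGS2, the members with the largest negative and positive fold change, and for RGS9, the one other RGS gene that passed the test below. They are read 5′ to 3′ on the plus strand, where all of these genes lie, from the RefSeq windows of GRCh38.p14 that hold the 250 bases before a transcript start. For RGS2 (chr1:192808789-192809038) and RGS9 (chr17:65137120-65137369) the window is whole. For RGS4 the first run (chr1:163068621-163068774) ends where the GENCODE gene model begins, and 30 bases are added around the match before the first RefSeq start (chr1:163068791-163068820) and around that before the third (chr1:163069319-163069348), both of which lie in annotated exons of the gene. Capitals mark matches, on either strand, to 6 motifs: the SMAD box CAGACA, the GC-rich SMAD element GGCGCC, the AP-1 site TGANTCA, the E-box CAGGTG bound by Snail factors, the cAMP response element TGACGTCA and the TATA box TATAAA.
RGS4, upstream: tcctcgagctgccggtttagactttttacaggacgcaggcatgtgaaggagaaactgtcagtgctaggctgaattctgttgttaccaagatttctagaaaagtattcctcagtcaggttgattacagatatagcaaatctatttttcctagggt
RGS4, SMAD box: cgggcttataacTGTCTGtcatccagctat
RGS4, TATA box: tcgtagctgggcTATAAAagagacccctac
RGS2: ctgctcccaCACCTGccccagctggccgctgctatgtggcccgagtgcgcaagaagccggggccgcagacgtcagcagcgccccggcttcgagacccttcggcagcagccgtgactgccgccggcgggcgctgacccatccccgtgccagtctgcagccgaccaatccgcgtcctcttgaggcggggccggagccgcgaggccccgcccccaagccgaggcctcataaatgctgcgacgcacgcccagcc
RGS9: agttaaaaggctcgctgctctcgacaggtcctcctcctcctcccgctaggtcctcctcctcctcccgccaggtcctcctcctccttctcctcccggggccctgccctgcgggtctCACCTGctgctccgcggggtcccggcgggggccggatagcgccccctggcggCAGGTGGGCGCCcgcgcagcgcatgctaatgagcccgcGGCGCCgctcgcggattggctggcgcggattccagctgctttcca

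The SMAD box match of RGS4 starts 68 bases before the first of its 4 RefSeq starts. CAGACA or its reverse complement was found in 13.6% of 35116 promoter windows of the same length. That share is per window, whereas RGS4 was searched in 4 windows. The motif was also found in a window of RGS3 and in a window of RGS12, and RGS12 did not pass the test below. The TATA box match starts 30 bases before the third RefSeq start, and 10.7% of windows held one. The RGS2 window held 1 match to CAGGTG, which starts 241 bases before the transcript start, and 17.5% of windows held that motif. The RGS9 window held 2 matches each to CAGGTG and GGCGCC, and 16.4% of windows held the latter. GGCGCC was also found before starts of RGS3, RGS10 and RGS17, and CAGGTG before starts of RGS3 and RGS5. The AP-1 site (6.57% of windows) and the cAMP response element (1.65% of windows) were in none of these windows. The windows of RGS2 and RGS9 were GC-rich (72.8% and 71.6%), and those of RGS4 holding the SMAD box and the TATA box less so (42.8% and 47.6%). RGS3 and RGS12 have 5 RefSeq start windows each, and counts per gene do not say which start was used. A match describes letters and shows no binding.

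Of the 11 rows, 10 passed the filter on low counts and RGS16 did not. With TGF-beta, 5 rows were called lower (RGS4, RGS3, RGS5, RGS20 and RGS14), 0 were called higher and 5 were not called, where a call is a Benjamini-Hochberg adjusted p below 0.05 in the edgeR quasi-likelihood fit of 20992 genes. Over all genes tested, 40.1% were called, 19.7% higher and 20.4% lower. With library totals alone in place of TMM scaling, all genes split into 2698 higher and 7282 lower, against 4145 and 4278, and the members into 0 and 7. The 3 TGF-beta libraries lay entirely below the 3 vehicle libraries for 6 rows and entirely above them for 0. Over all genes tested, 52.3% had no overlap, 25.4% with TGF-beta higher and 26.9% with TGF-beta lower. Nothing is read from these counts, since the members were proposed with this contrast in view. The members' median log2 fold change was -0.30, and that of all genes tested was -0.01. In bulk RNA, fewer cells that transcribe a gene and less RNA per cell cannot be told apart.

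The libraries held 37205862 to 54160521 counted reads, so that 1 CPM (counts scaled to library size with TMM factors) stood for 35.7 to 56.2 reads. Vehicle replicate 1 stood apart from the other vehicle libraries, since the chi-square of its counts against theirs, divided by its degrees of freedom, came to 24.1 and 26.6. The same ratio was 2.94 between vehicle replicates 2 and 3. Each vehicle library was also set against the other 2, with the direction of TGF-beta taken anew each time from the mean of those 2 to the TGF-beta mean, so that a gene can count for more than 1 library. By this measure vehicle replicate 1 lay beyond both others in the direction of TGF-beta in 51.1% of genes tested, replicate 2 in 30.5% and replicate 3 in 33.6%. Among the 10 tested rows it did so for 7, replicate 2 for 2 and replicate 3 for 3. Values without vehicle replicate 1 are therefore given beside some of those that it moves. Values printed alone can be moved by it as well. As for the label, 6 cholangiocyte markers, keratins KRT7, KRT19, KRT8 and KRT18 with EPCAM and SOX9, averaged at least 1 RPKM over the 6 libraries. With TGF-beta, KRT7 and KRT8 were called higher, EPCAM and SOX9 were called lower, and KRT19 and KRT18 were not called. SOX9 averaged 2.33 RPKM in vehicle and 0.651 RPKM with TGF-beta. CFTR was listed at 0 in every library. The 4 hepatocyte markers summed to at most 0.0536 RPKM in any library. Of 5 fibroblast markers, COL1A1 and PDGFRB were present and rose, while DCN, LUM and COL3A1 were each at most 0.0257 RPKM in the mean of either condition. The 5 markers summed to 71.6 to 79.1 RPKM in vehicle and 207 to 236 RPKM with TGF-beta. The 4 endothelial markers summed to 1.33 to 1.64 RPKM in vehicle and 0.640 to 0.741 RPKM with TGF-beta, mostly from KDR. The 4 leukocyte markers summed to 1.73 to 2.18 RPKM over all libraries, mostly from CD68, with PTPRC at no more than 0.0036 RPKM in the mean of either condition. What part these marker changes had in the RGS values was not tested.

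**Figure D1:**
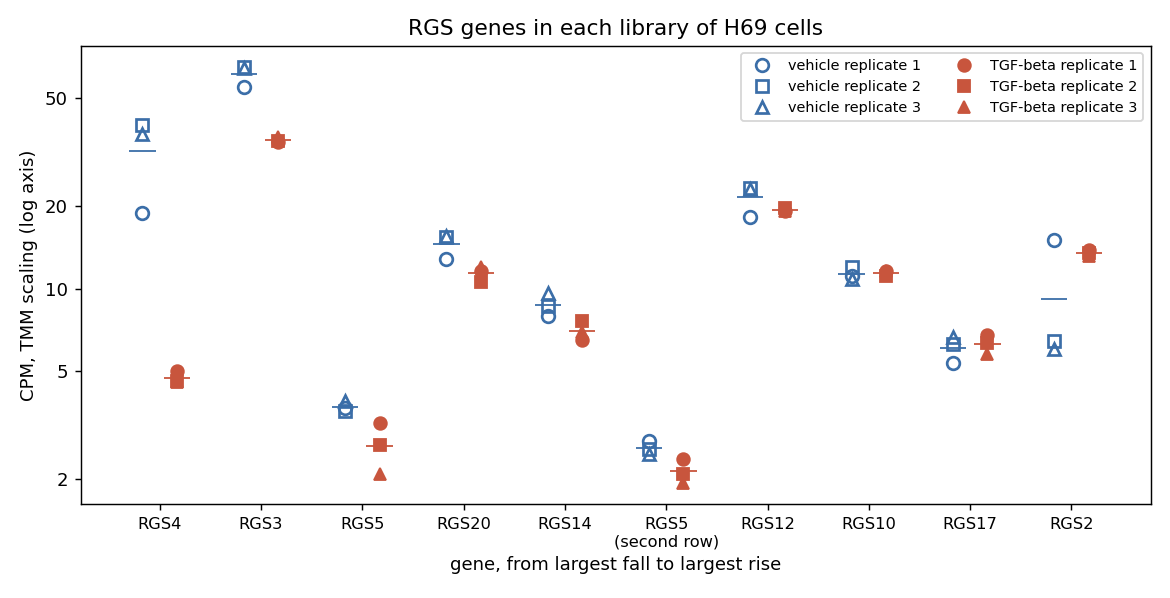
Level of each tested RGS row in every library, in CPM with TMM scaling on a log axis, with open blue symbols for vehicle, filled red symbols for TGF-beta and short lines for the means. RGS4 lay at 18.8 to 39.9 CPM in vehicle and 4.54 to 4.98 CPM with TGF-beta, while RGS2 in vehicle replicate 1 (15.0 CPM) lay above the TGF-beta libraries (13.2 to 13.8 CPM). RGS16 is left out because it did not pass the filter.

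Within the R4 subfamily, RGS4 showed the largest difference. RGS4, which acts on the Gi and Gq classes of alpha subunit (ENSG00000117152, hg38 chromosome 1, 163068775 to 163076802, plus strand), measured 18.8, 39.9 and 36.9 CPM in vehicle replicates 1, 2 and 3. With TGF-beta it measured 4.98, 4.57 and 4.54 CPM in replicates 1, 2 and 3. The conditions did not overlap, and the lowest vehicle library was the first. The means were 31.9 ± 11.4 and 4.70 ± 0.247 CPM (SD, n = 3), 6.78-fold lower with TGF-beta, and the fitted log2 fold change was -2.77 with a standard error (SE) of 0.35. Without vehicle replicate 1 the log2 fold change was -3.03. RGS4 was called lower with each of the 6 libraries left out in turn and under the other 8 alternatives.

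RGS3, an R4 member with long isoforms that carry further domains (ENSG00000138835, hg38 chromosome 9, 113444731 to 113597743), had the most reads of the set. RGS3 stood at 54.6, 64.9 and 64.5 CPM in vehicle replicates 1 to 3 and at 34.3, 34.7 and 36.0 CPM in TGF-beta replicates 1 to 3. All TGF-beta libraries were lower than all vehicle libraries, and they differed little among themselves. The means of 61.4 ± 5.86 and 35.0 ± 0.865 CPM (SD, n = 3) gave a log2 fold change of -0.81 (SE 0.07), which ran from -0.89 to -0.77 as single libraries were left out and was called each time. The annotation lists 32 transcripts of RGS3, and the change cannot be assigned to any of them.

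RGS2, the R4 member known for its preference for Gq alpha subunits (ENSG00000116741, hg38 chromosome 1, 192809039 to 192812283), differed between the vehicle libraries themselves. RGS2 measured 15.0, 6.41 and 6.0 CPM in vehicle replicates 1, 2 and 3, and 13.8, 13.5 and 13.2 CPM in TGF-beta replicates 1, 2 and 3. Vehicle replicate 1 was above every TGF-beta library, and vehicle replicates 2 and 3 were below them all. The means were 9.15 ± 5.11 and 13.5 ± 0.321 CPM (SD, n = 3), and RGS2 was not called (log2 fold change 0.58, SE 0.42). Without vehicle replicate 1 the log2 fold change was 1.12 (SE 0.08) and RGS2 was called higher, whereas with any other library left out it was not called. The coefficient of variation was 55.9% in vehicle and 2.38% with TGF-beta. Over the 16577 genes that averaged 1 CPM or more, the median coefficient of variation was 6.19% and 4.51%.

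RGS5, an R4 member widely used as a marker of pericytes, was scarce. The protein-coding row (ENSG00000143248, hg38 chromosome 1, 163111121 to 163321791, minus strand) measured 3.65, 3.56 and 3.86 CPM in vehicle replicates 1 to 3 and 3.22, 2.67 and 2.09 CPM in TGF-beta replicates 1 to 3. The groups did not overlap, but the TGF-beta libraries were spread more widely than the vehicle libraries, with coefficients of variation of 21.2% and 4.15%. RGS5 had a log2 fold change of -0.47 (SE 0.15) and was called lower, yet it kept that call in only 2 of 6 fits with a library left out, those without vehicle replicate 1 or TGF-beta replicate 1. The 5 markers of pericytes and smooth muscle, RGS5 among them, summed to 2.95 to 3.21 RPKM in vehicle and 3.75 to 4.04 RPKM with TGF-beta, with DES at or under 0.00848 RPKM in the mean of either condition. Of these markers CSPG4 rose, from a mean of 1.15 to 2.42 RPKM, while ACTA2 (1.4 and 1.09 RPKM) and MYH11 (0.288 and 0.251 RPKM) were not called.

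The second RGS5 row (ENSG00000232995, 163244505 to 163321894) has the biotype antisense in the table, but GENCODE release 29 places it on the same minus strand as the protein-coding gene. It shares 534 exonic bases with that gene, 14.7% of its own exonic length. NUF2, a kinetochore gene on the opposite strand, shares 5 exonic bases with this second row and 0 with the protein-coding row, and averaged 52.1 CPM. The second row measured 2.77, 2.58 and 2.47 CPM in vehicle replicates 1 to 3 and 2.38, 2.10 and 1.94 CPM in TGF-beta replicates 1 to 3. These groups were also apart, though the row was not called (log2 fold change -0.29, SE 0.13). With library totals alone it was called lower, at -0.41. The sources used here do not say how the authors' counting shared reads between these overlapping genes, so both RGS5 values are uncertain. NUF2 had a log2 fold change of -0.65 (edgeR adjusted p = 3.49e-06), and its part in the RGS5 values was not tested.

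RGS16, the third N-degron substrate of the R4 subfamily (ENSG00000143333, hg38 chromosome 1, 182598623 to 182604408), was at the edge of detection. Its read counts were 0, 9 and 3 in vehicle replicates 1, 2 and 3, and 3, 1 and 1 in TGF-beta replicates 1, 2 and 3. In 5 of the 6 libraries this is no more than 3 reads, the upper limit that a count of 0 allows, so no difference was detectable at this depth.

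Of the 3 R12 genes, RGS14 was called and RGS12 and RGS10 were not. RGS14, which carries a GoLoco motif that binds Gi alpha subunits in their GDP-bound state (ENSG00000169220, hg38 chromosome 5, 177357837 to 177372601), measured 7.92, 8.61 and 9.64 CPM in vehicle replicates 1 to 3 and 6.49, 7.59 and 6.94 CPM in TGF-beta replicates 1 to 3. The highest TGF-beta library lay just under the lowest vehicle library. RGS14 had a log2 fold change of -0.32 (SE 0.10) and was called lower, but stayed called in 2 of 6 fits with a library left out (without vehicle replicate 1 or TGF-beta replicate 2) and was not called by DESeq2. RGS12, which also carries a GoLoco motif (ENSG00000159788, hg38 chromosome 4, 3293028 to 3439913), measured 18.3, 23.3 and 23.2 CPM in vehicle replicates 1 to 3, and 19.2, 19.7 and 19.3 CPM in TGF-beta replicates 1 to 3. Vehicle replicate 1 lay below all TGF-beta libraries, so the groups overlapped. RGS12 was not called (log2 fold change -0.16, SE 0.09). Leaving out vehicle replicate 1 gave -0.26, and RGS12 was then called lower. It was also called lower with library totals alone, at -0.29.

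RGS10, a small R12 protein best known from microglia and other immune cells (ENSG00000148908, hg38 chromosome 10, 119499828 to 119542708), was nearly level. RGS10 measured 11.1, 12.0 and 10.8 CPM in vehicle replicates 1 to 3 and 11.6, 11.1 and 11.6 CPM in TGF-beta replicates 1 to 3. The ranges overlapped, the log2 fold change was 0.01 (SE 0.07), and its sign changed with the scaling and with the library left out.

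The RZ genes parted. RGS20, which favours the Gz alpha subunit (ENSG00000147509, hg38 chromosome 8, 53851808 to 53959303), measured 12.8, 15.5 and 15.5 CPM in vehicle replicates 1 to 3 and 11.6, 10.5 and 12.0 CPM in TGF-beta replicates 1 to 3. The groups did not overlap, and vehicle replicate 1 was again the nearest to the TGF-beta libraries. RGS20 was called lower, with a log2 fold change of -0.37 (SE 0.09), and it lost the call in 1 of 6 fits with a library left out, that without TGF-beta replicate 2. RGS17 (ENSG00000091844, hg38 chromosome 6, 153004459 to 153131249) measured 5.34, 6.25 and 6.65 CPM in vehicle replicates 1 to 3 and 6.75, 6.31 and 5.78 CPM in TGF-beta replicates 1 to 3. These ranges overlapped almost fully, and RGS17 was not called (log2 fold change 0.04, SE 0.11). Its sign changed with library totals alone and without vehicle replicate 1 or TGF-beta replicate 1.

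**Figure D2:**
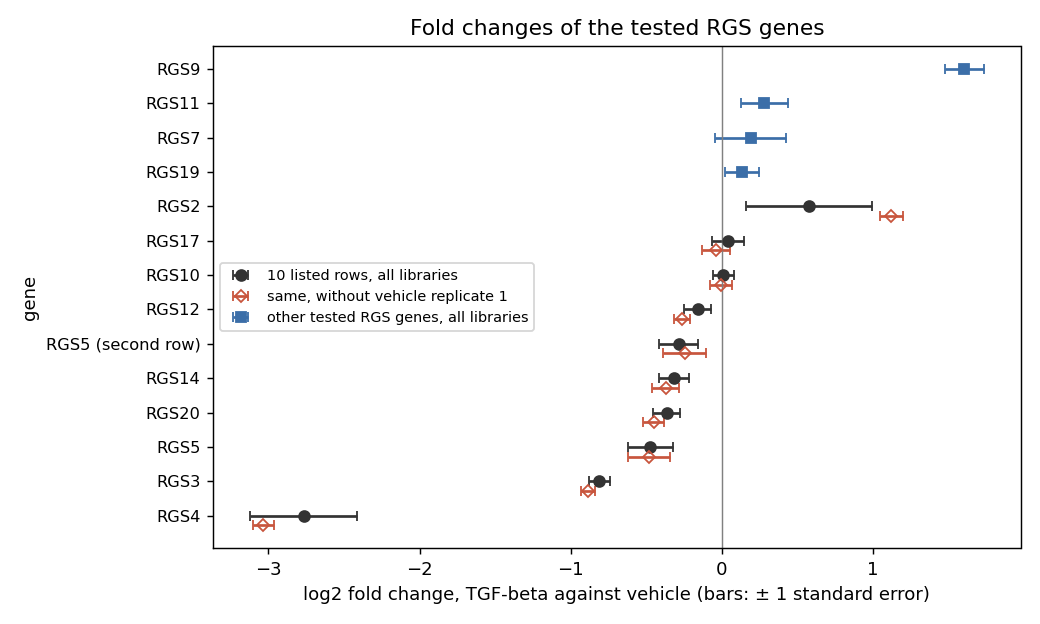
Log2 fold change of TGF-beta against vehicle with 1 SE for the 10 tested rows (black circles), for the same rows without vehicle replicate 1 (open red diamonds) and for the 4 other tested RGS genes (blue squares). RGS4 stands lowest at -2.77 and RGS9 highest at 1.60, and RGS2 moves from 0.58 to 1.12 when vehicle replicate 1 is left out.

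Levels of different genes were compared per length, in the authors' deposited RPKM (reads per kilobase, scaled to library size). In vehicle the order from the top was RGS10 (3.96 ± 0.201 RPKM), RGS4 (2.89 ± 1.03 RPKM), RGS20 (2.01 ± 0.212 RPKM), RGS3 (1.95 ± 0.184 RPKM) and RGS2 (1.92 ± 1.07 RPKM), as mean ± SD of 3 libraries. RGS4, RGS20 and RGS3 each overlapped the next in that order, so these ranges do not separate the ranks of RGS4, RGS20, RGS3 and RGS2. Within every single library, however, RGS20 was in the third place and RGS3 in the fourth. RGS14 (1.01 RPKM), RGS12 (0.701 RPKM), RGS17 (0.338 RPKM), the second RGS5 row (0.315 RPKM), RGS5 (0.237 RPKM) and RGS16 (0.0131 RPKM) followed, and of these only RGS17 and the second RGS5 row overlapped. RGS10 was at percentile 71.2 of the vehicle RPKM values of all genes tested, and RGS5 at percentile 17.9.

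With TGF-beta the order was RGS10 (3.76 ± 0.0838 RPKM), RGS2 (2.66 ± 0.0743 RPKM), RGS20 (1.47 ± 0.0922 RPKM), RGS3 (1.05 ± 0.0212 RPKM), RGS14 (0.762 ± 0.0607 RPKM), RGS12 (0.592 ± 0.00994 RPKM) and RGS4 (0.401 ± 0.0222 RPKM), and no gene overlapped the next. RGS4 was in the seventh place in each TGF-beta library, against the second in vehicle replicates 2 and 3 and the fifth in vehicle replicate 1. RGS2 was in the second place in each TGF-beta library and in vehicle replicate 1, and in the fifth in vehicle replicates 2 and 3. Of the summed RPKM of the 11 rows, RGS4 made up 11.7%, 22.6% and 21.7% in vehicle replicates 1, 2 and 3, and 3.40 to 3.66% with TGF-beta. RGS2 made up 21.5%, 8.36% and 8.16% in vehicle replicates 1, 2 and 3, and 22.7 to 23.6% with TGF-beta, so that vehicle replicate 1 lay near the TGF-beta libraries. The sum was 14.6, 15.9 and 15.4 RPKM in vehicle replicates 1 to 3 and 11.6, 11.3 and 11.4 RPKM in TGF-beta replicates 1 to 3. Every TGF-beta sum was below every vehicle sum. The deposited RPKM has no TMM scaling. The 15143 genes tested on log2(RPKM + 1) had a median log2 fold change of -0.055, against -0.011 for all genes tested with TMM. Nothing is read from the sums, since the members were proposed with this contrast in view.

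**Figure D3:**
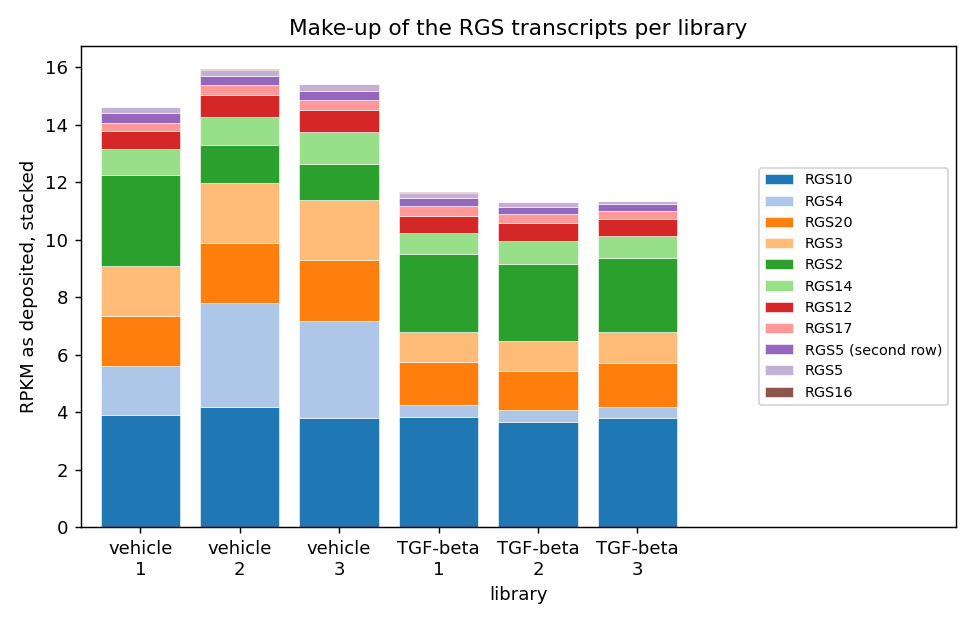
Deposited RPKM of the 11 RGS rows stacked for each library, in the order of their vehicle means. The stack is 14.6 to 15.9 RPKM high in vehicle and 11.3 to 11.6 RPKM with TGF-beta, and the light blue RGS4 segment shrinks while the RGS10 segment at the base stays between 3.67 and 4.19 RPKM.

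RGS4 and RGS5 are neighbours on chromosome 1, 34319 bases apart and transcribed toward each other. The nearest tested gene on the other side of RGS4, C1orf110, lay 199960 bases away and fell (log2 fold change -1.16, edgeR adjusted p = 0.000211), at a mean of 1.38 CPM. The nearest tested genes around RGS3, C9orf43 and ZNF618, had log2 fold changes of -0.05 and -0.44, of which the second was called. Beside RGS20, ATP6V1H was called lower at -0.28, and TCEA1 measured 0.01. Neither neighbour of RGS2, RGS10, RGS12, RGS14 or RGS17 was called.

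By Pearson correlation of log2 CPM over the 6 libraries among 16576 other genes, the patterns most like RGS4 were those of SCRN1, SLC12A2 and PLK2 (r at least 0.999). The patterns most like RGS2 were those of TFRC, ZFP36L2 and KLF5 (r of 0.999 for each). TFRC, the transferrin receptor gene, measured 344, 160 and 156 CPM in vehicle replicates 1, 2 and 3 and 326, 312 and 305 CPM in TGF-beta replicates 1, 2 and 3, so that it shared with RGS2 the high first vehicle library. With 6 libraries in 2 conditions such values are easily high: 1460 genes had an r above 0.95 with RGS4 and 242 with RGS2.

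Of the 11 RGS genes outside the set, 4 passed the filter. RGS9, an R7 protein that works in a complex with the beta subunit GNB5 (ENSG00000108370, hg38 chromosome 17, 65137431 to 65227703), was the one that rose. RGS9 measured 2.27, 3.24 and 3.11 CPM in vehicle replicates 1 to 3 and 8.40, 9.44 and 8.51 CPM in TGF-beta replicates 1 to 3. The conditions were far apart, with a log2 fold change of 1.60 (SE 0.13) and an edgeR adjusted p of 4.94e-06, and the call held under each alternative run. GNB5 rose from 59.0 ± 3.87 to 68.9 ± 3.19 CPM (log2 fold change 0.22, SE 0.06), but was not called with library totals alone, by limma on RPKM or without TGF-beta replicate 2 or 3. RGS19, an RZ gene, measured 12.0 ± 1.82 and 13.2 ± 1.13 CPM and was not called, as were the R7 genes RGS11 (1.18 ± 0.118 and 1.42 ± 0.0770 CPM) and RGS7 (0.604 ± 0.0973 and 0.690 ± 0.145 CPM). The R7 membrane anchor RGS7BP had 0 reads in every library, which allows up to 3 reads in each. RGS1, RGS8 and RGS13 had 0 reads as well, and RGS6, RGS18, RGS21 and RGS22 had at most 3 in any library.

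Among 14 proteins that carry an RGS-like domain without being RGS proteins, 1 was called higher and 0 lower. The share called over all genes tested was 40.1%. SNX25, a sorting nexin, rose from 18.2 ± 0.703 to 37.6 ± 2.55 CPM (log2 fold change 1.04, SE 0.06, edgeR adjusted p = 5.79e-07). The RhoGEF genes ARHGEF1, ARHGEF11 and ARHGEF12, the receptor kinases and the axins were not called. The count of calls was 5 without vehicle replicate 1, 2 without vehicle replicate 3, and 6 (1 higher, 5 lower) with library totals alone.

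G protein alpha subunits of all classes were tested for 13 of 15 genes, of which 6 rose and 2 fell (median log2 fold change 0.17). For comparison, 19.7% of all genes tested were called higher and 20.4% lower, with a median of -0.01. Among the targets of R4 and R12 proteins, GNAI2, GNAI3, GNAQ and GNA11 were near level. GNAI2 measured 248 ± 26.4 and 251 ± 9.45 CPM, and GNAI3 188 ± 3.17 and 190 ± 9.43 CPM. GNAQ measured 48.7 ± 1.25 and 48.9 ± 1.15 CPM, and GNA11 169 ± 5.50 and 180 ± 10.8 CPM. None of these 4 was called. GNAI1, the third Gi subunit, fell from 65.9 ± 11 to 40.1 ± 0.959 CPM (log2 fold change -0.71, SE 0.11, and -0.57 without vehicle replicate 1). GNAS, the Gs subunit that RGS proteins of these families do not act on, rose from 921 ± 38.6 to 1071 ± 17.7 CPM (0.22, SE 0.04). GNAZ, which RGS20 favours, rose from 1.71 ± 0.261 to 2.34 ± 0.0191 CPM (0.46, SE 0.15), but was not called by DESeq2, with library totals alone, or without vehicle replicate 2 or any TGF-beta library. The 8 calls became 3 without TGF-beta replicate 2 and 4 without either other TGF-beta library or without vehicle replicate 2, and also 4 with library totals alone, where the split was 2 higher and 2 lower and GNAS was not called.

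Of 15 tested beta and gamma subunits, 8 rose and 2 fell (median log2 fold change 0.16), beside 19.7% and 20.4% of all genes tested. The rises were small, GNG5 having the largest at 0.34 (SE 0.06), from 84.8 ± 7.68 to 107 ± 1.56 CPM. GNG11 fell from 20.8 ± 4.77 to 10.5 ± 0.787 CPM (-1.0, SE 0.18, and -1.18 without vehicle replicate 1). With library totals alone, which moved the median of all genes tested to -0.14, the split was 2 higher and 4 lower and the list's median 0.03, so the number of rises called depends on the scaling.

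Receptors whose signals RGS proteins can limit changed in both directions. Of 32 tested receptor genes, 8 rose and 10 fell, beside 19.7% and 20.4% of all genes tested. S1PR5, a sphingosine-1-phosphate receptor, rose from 0.405 ± 0.0677 to 15.4 ± 1.11 CPM (log2 fold change 5.24, SE 0.13). ADORA2A, an adenosine receptor, fell from 5.25 ± 1.46 to 1.29 ± 0.211 CPM (-2.04, SE 0.24, and -2.24 without vehicle replicate 1). Among effectors, 3 of 13 tested genes rose and 1 fell (3 and 2 with library totals alone), beside the same shares of all genes tested. The adenylyl cyclase gene ADCY7 rose from 18.7 ± 1.94 to 56.3 ± 2.26 CPM (1.59, SE 0.07) and ADCY9 fell from 50.4 ± 2.76 to 41.8 ± 0.937 CPM (-0.27, SE 0.05).

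Of 15 tested partners and handling enzymes, 3 rose and 6 fell (median log2 fold change -0.19), beside 19.7% and 20.4% of all genes tested. ARRB2, beta-arrestin 2, which uncouples receptors from G proteins, fell from 36.5 ± 0.579 to 16.8 ± 0.714 CPM (-1.12, SE 0.05). GPSM1, a GoLoco protein, rose from 19.1 ± 1.96 to 25.6 ± 1.12 CPM (0.42, SE 0.08). Of the N-degron enzymes that act on RGS4, RGS5 and RGS16, the arginyltransferase gene ATE1 fell from 40.0 ± 1.64 to 32.8 ± 3.26 CPM (-0.29, SE 0.07) and the ubiquitin ligase gene UBR2 from 71.9 ± 3.69 to 59.8 ± 1.59 CPM (-0.27, SE 0.05), while UBR1 (83.6 ± 6.80 and 75.8 ± 3.07 CPM) was not called. UBR1 was called lower with library totals alone, without vehicle replicate 3 and under 4 other alternatives.

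**Figure D4:**
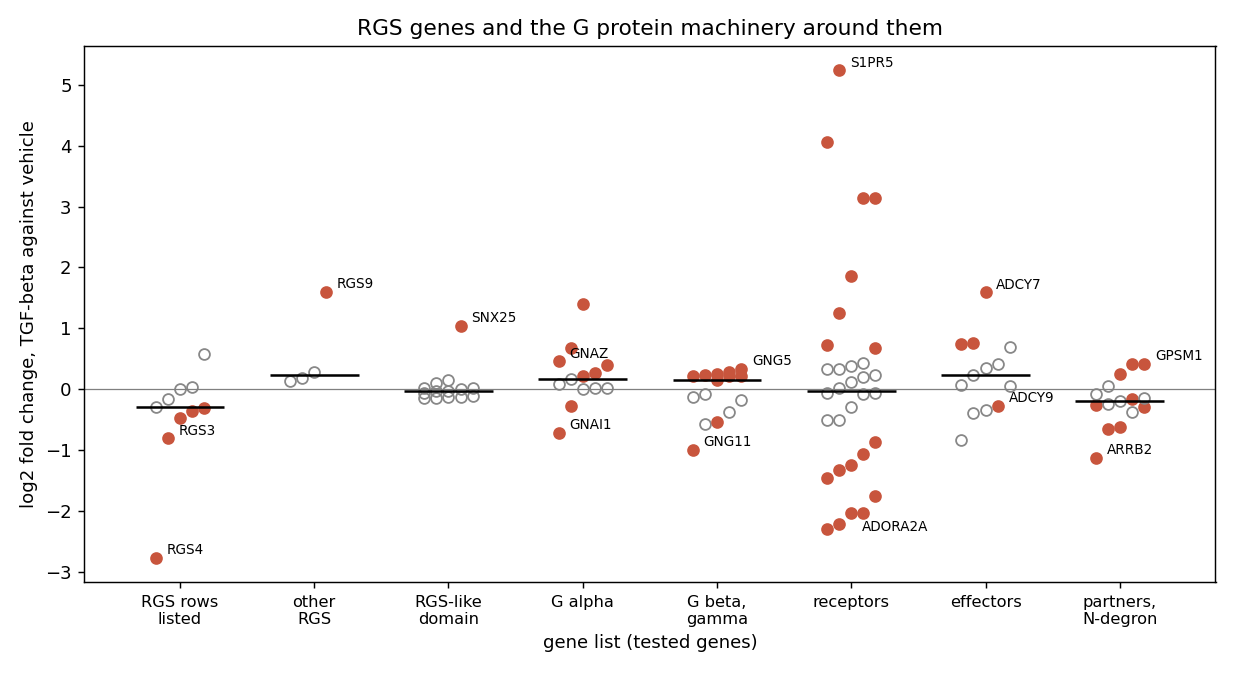
Log2 fold change of TGF-beta against vehicle for each tested gene of the RGS set and of 7 lists of related genes, with filled red circles for genes called and open grey circles for the others, and black lines for list medians. The receptor list (32 tested genes) runs from -2.30 for BDKRB2 to 5.24 for S1PR5, while the 10 RGS rows run from -2.77 to 0.58.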

How the data were processed

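The 6 H69 libraries (3 vehicle, 3 TGF-beta) were grouped by treatment. The 1 table the authors deposited holds whole-number read counts per gene, not normalized, and RPKM by the authors, per the file headers. Per the submitters' processing notes, bcl2fastq, STAR 2.6.1 and featureCounts of Subread were used on hg38. Strand setting, handling of multi-mapped reads and annotation release are not given in the sources used here. The members' coordinates equal those of GENCODE release 29, but the exonic length of RGS12 differs. It is 13536 bases as deposited and 13755 in release 29, so the release behind the counts is not known. The RPKM scale uses a library total of which the table's counts make up 41.9 to 43.3%.

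In R 4.3.3, edgeR 4.0.16 was run with TMM scaling, filterByExpr at a count of 10 or more, and robust quasi-likelihood fits, with Benjamini-Hochberg adjustment over the 20992 genes tested and a call at an adjusted p under 0.05. SEs were taken as log2 fold change over √F. Alternatives used DESeq2 1.42.0, limma 3.58.1 on log2 of the deposited RPKM plus 1 or 0.1 (mean RPKM of at least 0.5), other scalings and filters, a replicate block, and each library left out. The steps were tested on simulated data. The members, the 7 lists (136 genes) and the naming rule (per list the largest called rise and fall at a mean of at least 1 CPM, fixed genes, neighbours and the 3 most alike patterns) were chosen with earlier results of these data known. C1orf110, NUF2 and other genes outside the rule were named after their values were seen. Promoters came from RefSeq (GRCh38.p14). RGS20 sequence was not analysed here. The values of 1 marker gene and 1 neighbouring gene are not reported here.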

Additional observations from a re-analysis of the deposited data

How the results depend on the processing

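Over 14 alternatives, RGS4 and RGS3 kept direction and call. The members called, 5 in all, were 3 to 7 with single libraries left out: 7 without vehicle replicate 1, 4 without TGF-beta replicate 1, and 3 with any one of the others left out. RGS17 changed sign, to -0.084 with library totals alone, and ran from -0.039 (without vehicle replicate 1) to 0.11 with single libraries left out. RGS10 did so at -0.12 with library totals alone and at -0.058 and -0.071 by limma on log2(RPKM + 1) and log2(RPKM + 0.1), and ran from -0.020 (without vehicle replicate 3) to 0.059. The cause was not tested.

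Calls in the RGS-like domain list, 1 in all, were 6 with library totals alone and by limma with either pseudocount, 2 with at least 1 CPM in 3 libraries, 4 with the replicate block, and 1 to 5 with single libraries left out. Calls among alpha subunits, 8 in all, were 4 with library totals alone, 5 by DESeq2, and 3 to 8 with single libraries left out. By limma with either pseudocount they were 4, but only 8 genes were tested there, against 13. Calls among beta and gamma subunits, 10 in all, were 6 with library totals alone and 4 by limma, which tested 11 of these genes against 15. Receptors had 11 calls by limma against 18, where fewer genes passed the RPKM filter.

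The replicate block gave 8577 calls over all genes against 8423, and 5 members. Same-numbered libraries correlated at 0.07, 0.06 and 0.01 in their deviations, so the numbers were not taken to pair them, and TGF-beta replicate 3 correlated best with vehicle replicate 2. Library totals alone gave 2698 genes higher and 7282 lower, against 4145 and 4278. Depth limited RGS16, with at most 9 reads in a library.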
